A study of Mus musculus with 4 samples.

Results

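The unfolded protein response and the integrated stress response were read here through 10 genes, Hspa5, Ddit3, Atf4, Atf3, Xbp1, Trib3, Herpud1, Dnajb9, Chac1 and Sdf2l1, out of 18194 genes that could be named on the arrays. The genes were chosen by name, as known targets or transcription factors of these responses, and all 10 were found, at 20 of 45101 probe sets. Cerebrum RNA was measured on whole-genome Affymetrix arrays in 4 groups of mice, each as 1 array of RNA pooled from 5 to 6 halved cerebrums. The 2aECKO pool came from postnatal day 9 mice homozygous for a floxed Mfsd2a allele and carrying Tie2-cre, which acts in endothelium from embryonic life and is also known to act in blood-forming cells, and its 2afl/fl control from day 9 floxed mice without cre. The 2aiECKO pool came from day 8 floxed mice carrying Cdh5ERT2-cre, an endothelial cre that works only after 4-hydroxytamoxifen (4-OHT), and its control, 2afl/fl 4-OHT, from day 8 floxed mice given 4-OHT without cre. All 4 groups thus share the floxed allele, and 1 of the pairs shares 4-OHT, given from the day of birth. For the 2aiECKO sample the labels conflict, since the title and genotype give 2aiECKO and the source name gives 2aECKO; the title and genotype were followed. The question was whether cerebrums that lack the lysolipid transporter Mfsd2a at the blood-brain barrier, and in which membrane phospholipids are known to shift, also carry a change in stress genes.

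The unfolded protein response starts at the membrane of the endoplasmic reticulum (ER), where the sensors Ire1, Perk and Atf6 react to unfolded proteins in the lumen. In cultured cells, Ire1 and Perk also react to more saturated membrane lipid. Ire1 removes a short intron from Xbp1 mRNA, Atf6 is cut to a free transcription factor, and Perk phosphorylates the translation factor eIF2 alpha. Phosphorylated eIF2 alpha, which other kinases also produce, defines the integrated stress response: general translation falls while Atf4 mRNA is translated more, and Atf4 then raises Ddit3 (Chop), Atf3, Trib3 and Chac1. Arrays of this kind measure mRNA amounts, so Xbp1 splicing, Atf6 cleavage, eIF2 alpha phosphorylation and Atf4 protein were not measured.

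Some promoters of the genes hold the letters of elements that factors of the responses are known to bind, and those stretches are shown for that reason. Promoter windows of 300 bases, 250 before and 50 after the start of transcription, came from RefSeq on build GRCm38.p6 and were found for 10 of the 10 genes. The ER stress response element (ERSE), which Atf6 and Xbp1 bind, was searched as CCAAT, 9 unspecified bases and CCACG, and its variant ERSE-II as ATTGG, 1 unspecified base and CCACG. The C/EBP-ATF response element (CARE), which Atf4 binds, was searched as TGATG, 1 unspecified base and AA. The Xbp1 element UPRE was searched as TGACGTGG and the cyclic AMP element CRE as TGACGTCA. Both strands were read, and no 2 of the matches below overlap. The stretches below run 5′ to 3′ in the direction of the gene, with the match in capitals and 10 bases on either side.
Hspa5, ERSE: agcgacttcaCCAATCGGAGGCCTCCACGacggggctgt
Herpud1, ERSE-II: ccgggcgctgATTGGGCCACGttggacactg
Herpud1, CARE: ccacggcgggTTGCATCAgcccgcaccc
Chac1, CARE: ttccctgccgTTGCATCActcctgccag
Atf3, CARE: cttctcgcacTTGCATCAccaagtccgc
Trib3, CARE: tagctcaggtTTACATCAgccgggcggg

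The Hspa5 stretch lies at chr2:34772015-34772053 on the plus strand, its element beginning 65 bases before the start. The ERSE-II of Herpud1 lies 52 bases before the start, in the stretch chr8:94386367-94386397 on the plus strand, and its CARE 112 bases before, in chr8:94386307-94386334. All 4 CARE matches read on the strand opposite to the gene. That of Chac1 begins 193 bases before the start (chr2:119351039-119351066, plus strand), that of Atf3 110 bases before (chr1:191183426-191183453, minus strand) and that of Trib3 at base 15 after the start (chr2:152344029-152344056, minus strand). Exact ERSE letters were in 0.119% of all 32851 promoter windows and ERSE-II in 0.0365%, against 3.97% for CARE, 0.676% for UPRE and 1.79% for CRE. Among the 10 genes 1 held ERSE, 1 ERSE-II, 4 CARE and 0 UPRE or CRE. Herpud1 held both ERSE-II and CARE, and Ddit3, Atf4, Xbp1, Dnajb9 and Sdf2l1 held none of these. A match describes the letters in a window and is not a bound site.

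Each pair of arrays was on its own scale, so all differences were taken within a pair. The median signal was 75.5 in 2aECKO and 74.1 in 2afl/fl, against 49.2 in 2aiECKO and 48.7 in 2afl/fl 4-OHT, all linear signals after the authors' normalization. The single Mfsd2a probe set had signals of 410.2 in 2aECKO and 423 in 2afl/fl (log2 fold -0.05), and of 299 in 2aiECKO and 369 in 2afl/fl 4-OHT (log2 fold -0.30). The 2aECKO value thus stood near its control, and since the part of the transcript that the probe set reads was not looked up, it does not check the label. The tissue label was borne out by 8 of 8 neuron markers at a signal of at least 113 on each array, with Snap25 between 5377 and 6903. With 1 array per group no difference below has a replicate check or a test, and a fold within the limits does not show that the levels were equal. In bulk cerebrum RNA, fewer cells of a type and less RNA per cell cannot be told apart.

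No stress gene passed the limits of size and signal in either knockout. A gene counted as higher if it stood at least 25% above the control (0.32 on the log2 scale) and its knockout signal reached 50. It counted as lower if it stood at least 20% below the control and its control signal reached 50. In 2aECKO 0 of the 10 genes were higher and 0 lower, where 2.24% of all genes bright enough were higher and 1.76% lower. In 2aiECKO likewise 0 were higher and 0 lower, against 1.90% and 0.604% of all genes bright enough. Of the 10 genes, 9 reached a signal of 50 in 2aECKO, 2afl/fl and 2aiECKO, and 8 in 2afl/fl 4-OHT. Atf3 could therefore not be counted in either pair, nor Trib3 as lower in 2aiECKO. With so few genes, a count of 0 is near these shares. The log2 folds of the 10 genes ran from -0.11 to 0.09 in 2aECKO with a median of 0.05, and from -0.06 to 0.63 in 2aiECKO with a median of 0.05. The medians over all 18194 genes were -0.01 in 2aECKO and 0.00 in 2aiECKO. With both controls averaged after quantile normalization over all 4 arrays, the medians of the 10 genes were -0.035 in 2aECKO and 0.15 in 2aiECKO. Those of all genes were then -0.048 and 0.037. The sign of the 2aECKO median of the 10 genes thus depended on the control, and the median of all genes moved with it. In 2aECKO 7 of the 10 genes were above 0, and in 2aiECKO 8 were, compared with 43.9% and 44.9% of all genes.

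**Figure D1:**
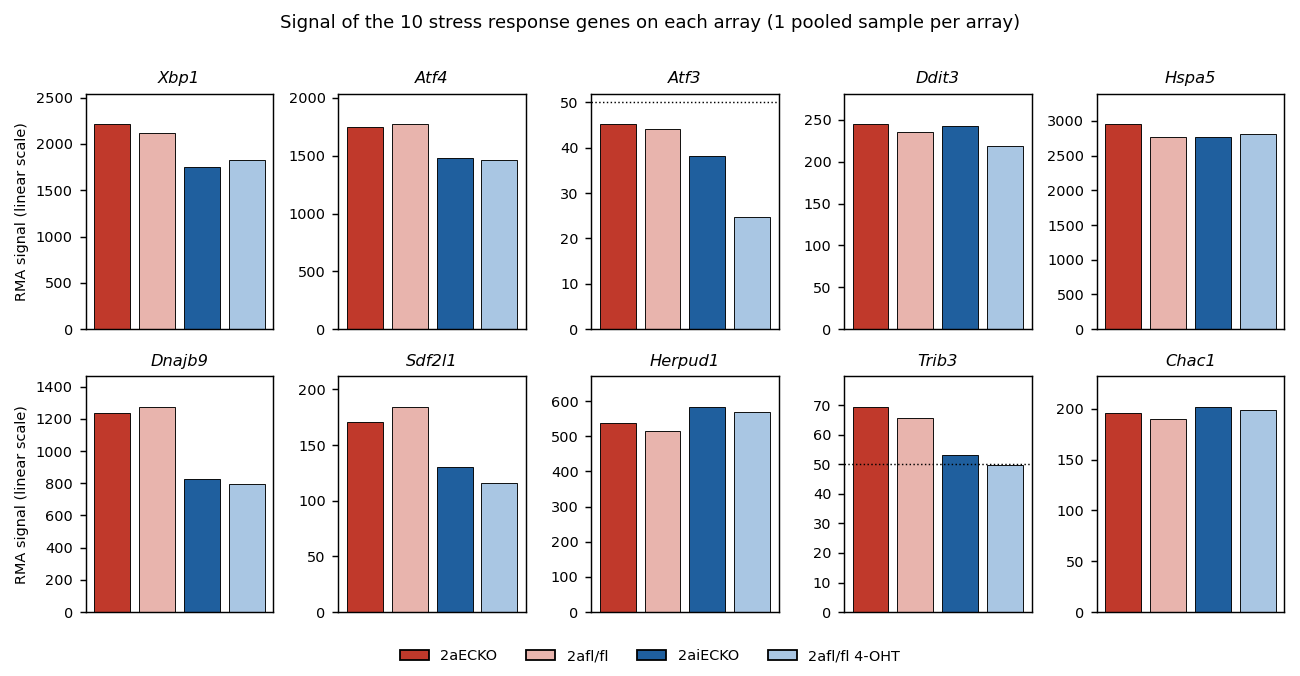
RMA signal (linear scale, from 0) of the 10 genes at the probe set that stands for each, with 1 bar per array: 2aECKO and 2afl/fl in dark and light red, 2aiECKO and 2afl/fl 4-OHT in dark and light blue. The dotted line marks a signal of 50, and Atf3 alone stays below it on all 4 arrays; levels of different genes cannot be compared.

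The genes of the ER chaperone system stood within the limits in both pairs. Hspa5 encodes BiP, the main Hsp70 chaperone of the ER and the protein that holds the sensors inactive. It had a signal of 2953 in 2aECKO and 2767 in 2afl/fl, and of 2772 in 2aiECKO and 2812 in 2afl/fl 4-OHT, at the probe set 1416064_a_at. The log2 folds were 0.09 and -0.02. A second probe set had 1686 in 2aECKO and 1536 in 2afl/fl (log2 fold 0.13), and 1394 in 2aiECKO and 1308 in 2afl/fl 4-OHT (log2 fold 0.09). The third gave 0.02 and 0.08. All 3 probe sets of BiP, whose promoter holds the ERSE printed above, were thus above 0 in 2aECKO and 2 of the 3 in 2aiECKO.

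Dnajb9 encodes ERdj4, a J-domain partner of BiP that is induced through Xbp1. Its signal was 1238 in 2aECKO and 1273 in 2afl/fl, and 828 in 2aiECKO and 794 in 2afl/fl 4-OHT. The log2 folds were -0.04 and 0.06. Sdf2l1, a luminal ER protein found in complexes with ER J-domain proteins, had 171 in 2aECKO and 184 in 2afl/fl, and 131 in 2aiECKO and 116 in 2afl/fl 4-OHT. It had the lowest log2 fold of the 10 genes in 2aECKO, -0.11, and 0.17 in 2aiECKO, the highest there among the 9 genes whose mean signal reached 50. Herpud1, a membrane protein of ER-associated degradation whose promoter holds both an ERSE-II and a CARE, had 539 in 2aECKO and 516 in 2afl/fl, and 583 in 2aiECKO and 569.7 in 2afl/fl 4-OHT. Its log2 folds were 0.06 and 0.03, and its other probe set gave 0.00 and 0.03.

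Among the transcription factors, Xbp1 and Atf4 differed little from their controls at their brightest probe sets. Xbp1 had 2212 in 2aECKO and 2119.6 in 2afl/fl, and 1750.4 in 2aiECKO and 1827 in 2afl/fl 4-OHT, log2 folds of 0.06 and -0.06. Of its 3 other probe sets, 2 lay between -0.02 and 0.03 in both pairs. The dimmest, 1420012_at, had 129 in 2aECKO and 153 in 2afl/fl, a log2 fold of -0.25, and 103 in 2aiECKO and 106 in 2afl/fl 4-OHT, a log2 fold of -0.03. The Xbp1 transcript that this probe set reads was not looked up here. Atf4, the master factor of the integrated stress response, had 1752 in 2aECKO and 1772 in 2afl/fl, and 1484 in 2aiECKO and 1460.2 in 2afl/fl 4-OHT, log2 folds of -0.02 and 0.02. A second probe set gave 0.06 and 0.13. The third gave 0.33 and 0.22, at signals of 30.9 in 2aECKO and 24.6 in 2afl/fl, and 27.8 in 2aiECKO and 23.8 in 2afl/fl 4-OHT, all below the minimum of 50.

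Ddit3 encodes Chop, the factor that links prolonged ER stress to cell death. Its signal was 245 in 2aECKO and 235 in 2afl/fl, and 243 in 2aiECKO and 219 in 2afl/fl 4-OHT, log2 folds of 0.06 and 0.15. Its other probe set lay on the other side of 0, with 52.3 in 2aECKO and 55.3 in 2afl/fl (log2 fold -0.08), and 28.0 in 2aiECKO and 32.5 in 2afl/fl 4-OHT (log2 fold -0.21). The direction of Ddit3 therefore depended on the probe set.

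Atf3 was the gene that stood farthest from its control, in 2aiECKO, and at a low signal. Atf3 is a stress-induced factor and also an immediate early gene of injured or strongly active cells. Its single probe set had 45.2 in 2aECKO and 44.2 in 2afl/fl, a log2 fold of 0.03, and 38.2 in 2aiECKO and 24.7 in 2afl/fl 4-OHT, a log2 fold of 0.63 or 1.54-fold. All 4 signals were below 50, so the gene was not counted as higher. Of the 6268 genes with a signal below 50 in 2aiECKO, 3.35% stood at least 25% above the control. The central 90% of log2 folds ran from -0.30 to 0.28 for genes with a mean signal below 50 in the 2aiECKO pair, and from -0.17 to 0.21 for genes above that. Activity-regulated immediate early genes were also above 0 in that pair. Of 10 such genes 1, Fos, was higher (517 in 2aiECKO, 376 in 2afl/fl 4-OHT, log2 fold 0.46) and 9 had a log2 fold above 0, with a list median of 0.11. In 2aECKO the median of that list was -0.08 and 4 of 10 were above 0. Of all genes, 44.9% were above 0 in 2aiECKO and 43.9% in 2aECKO, and 1.90% of those bright enough were higher in 2aiECKO. Of 9 markers of microglia 6 were higher in 2aiECKO by at least 25%, where 1.90% of all genes bright enough were. In that pair 8 of the 9 were above 0, and Tmem119 was at -0.14. Their summed signal was 5164 in 2aiECKO and 3613 in 2afl/fl 4-OHT. In 2aECKO 5 of the 9 were above 0, up to 0.31 for C1qa, and 0 were higher. The 2 lower markers there were P2ry12 at -0.36 and Tmem119 at -0.46, where 1.76% of all genes bright enough were lower. The median was 0.01 and the summed signal 4284 in 2aECKO and 4082 in 2afl/fl. The part of these cells or genes in the Atf3 value was not tested.

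Trib3 and Chac1 are effectors that Atf4 induces, and both stood within the limits. Trib3, a pseudokinase, had 69.4 in 2aECKO and 65.6 in 2afl/fl, and 53.3 in 2aiECKO and 49.9 in 2afl/fl 4-OHT, log2 folds of 0.08 and 0.10. Its other probe set was below 50 on all 4 arrays. Chac1, which degrades glutathione and is among the most inducible Atf4 targets, had 196 in 2aECKO and 190.4 in 2afl/fl, and 202 in 2aiECKO and 199 in 2afl/fl 4-OHT. Its log2 folds were 0.04 and 0.02. Atf3, Chac1 and Trib3, the 3 genes with CARE letters but no ERSE-II, thus had log2 folds from 0.03 to 0.08 in 2aECKO and from 0.02 for Chac1 to 0.63 for Atf3 in 2aiECKO.

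**Figure D2:**
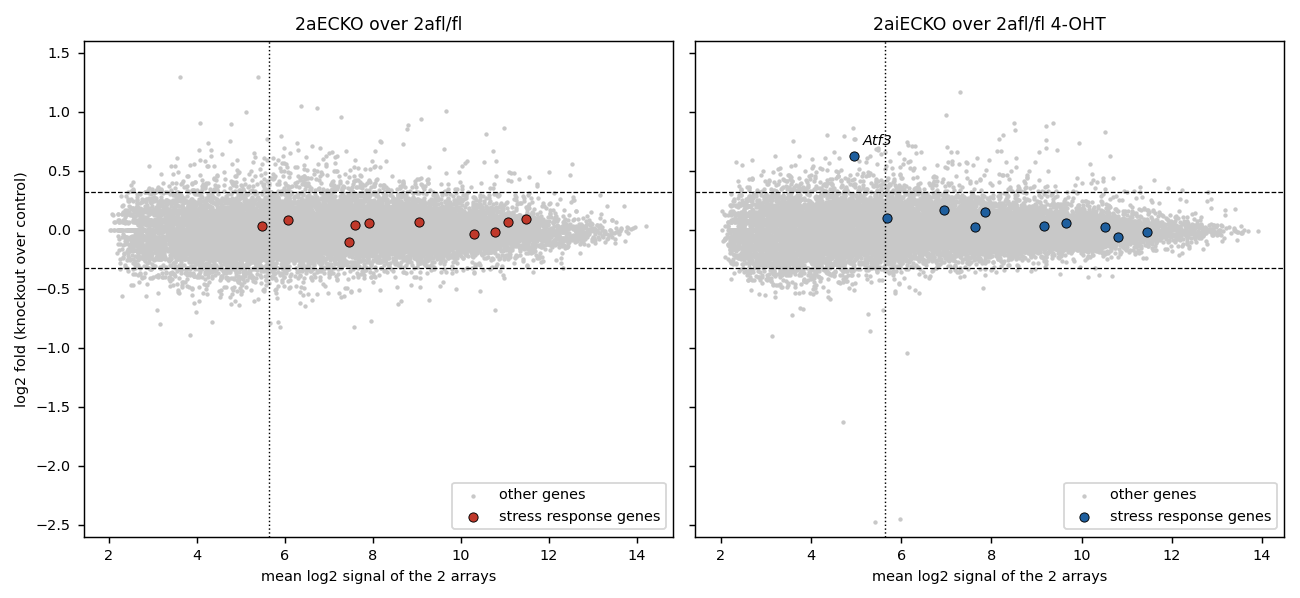
Log2 fold (vertical axis) against the mean log2 signal of the pair (horizontal axis) for all 18194 genes in grey and the 10 stress response genes in colour, 2aECKO over 2afl/fl on the left and 2aiECKO over 2afl/fl 4-OHT on the right. Dashed lines mark 0.32 above and below 0 and the dotted line a signal of 50; of the 10 genes, Atf3 in 2aiECKO, left of the dotted line at 0.63, is the only one outside the dashed lines.

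Probe sets of 1 gene disagreed with each other by amounts like these. Over genes with at least 2 probe sets of sufficient signal, the log2 folds of the brightest pair of probe sets differed by a median of 0.08 in 2aECKO (6096 genes) and 0.07 in 2aiECKO (5225 genes), and by up to 0.28 and 0.25 at the 95th percentile. The robust SD of log2 folds over genes whose mean signal reached 50 was 0.12 in 2aECKO and 0.10 in 2aiECKO. In 2aECKO 10 of the 10 genes lay within 1 robust SD of 0, and in 2aiECKO 7 did, the others being Sdf2l1, Ddit3 and Atf3. The median size of the log2 fold, without its sign, was 0.06 for the 10 genes in 2aECKO and 0.06 in 2aiECKO, against 0.08 and 0.07 for all genes of that brightness. Of the 20 probe sets 15 were above 0 in 2aECKO and 14 in 2aiECKO, with medians of 0.04 and 0.03. In each pair 1 probe set passed 0.32 in size, the dim Atf4 probe set in 2aECKO and that of Atf3 in 2aiECKO.

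**Figure D3:**
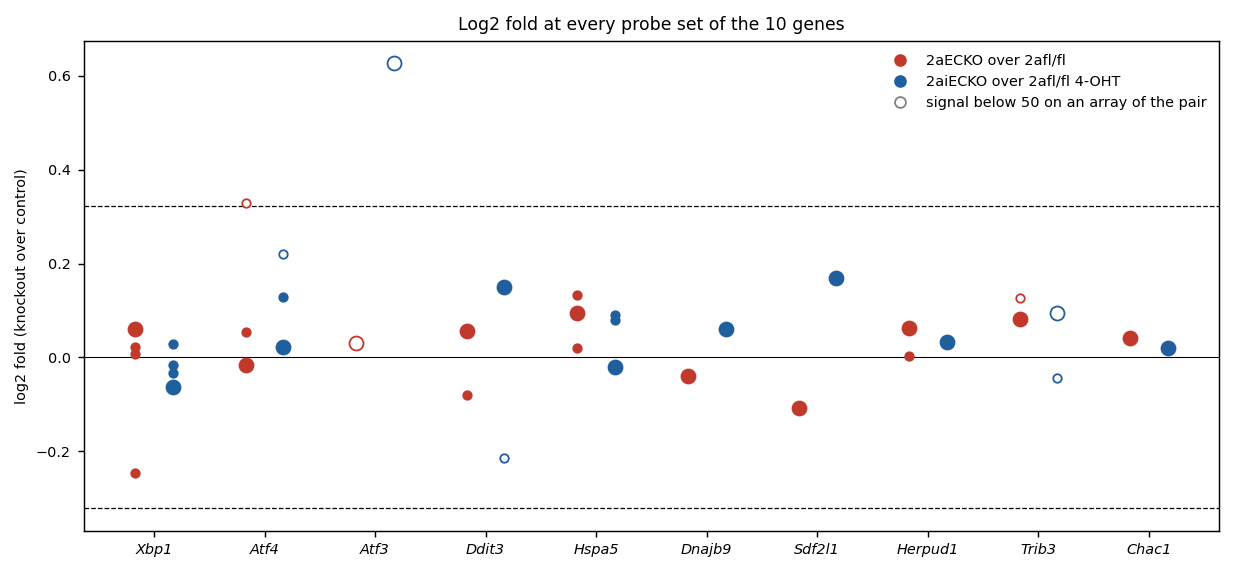
Log2 fold of each of the 20 probe sets of the 10 genes, 2aECKO over 2afl/fl in red and 2aiECKO over 2afl/fl 4-OHT in blue; the large circle stands for the gene, open circles have a signal below 50 on an array of the pair, and dashed lines mark 0.32 above and below 0. The probe sets beyond a dashed line are the open circles of Atf4 in 2aECKO (0.33) and Atf3 in 2aiECKO (0.63).

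The wider pathway held genes past the limits at about the shares of all genes. Of 99 genes in 5 lists of the responses, 94 were measured. For 2aECKO the count was 2 higher and 1 lower, beside 2.24% and 1.76% of all genes bright enough. For 2aiECKO it was 2 higher and 0 lower, beside 1.90% and 0.604%. The medians of the log2 fold over the 94 genes were 0.02 and 0.00. Sensors, eIF2 alpha kinases and phosphatase subunits and the eIF2B exchange factor had medians of 0.01 and -0.02 over 19 genes, and 0 genes past the limits in either model. The largest difference was that of Eif2ak4 (Gcn2, the kinase of amino acid shortage), with 152 in 2aECKO and 132 in 2afl/fl, a log2 fold of 0.21, and 0.14 in 2aiECKO. Eif2ak1, the haem-regulated kinase, had -0.18 in 2aECKO and 0.03 in 2aiECKO, and the exchange factor subunit Eif2b3 had 0.03 and -0.17.

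Chaperones and folding enzymes of the ER, 22 genes that include Hsp90b1, Calr and Canx, had medians of 0.02 in 2aECKO and -0.01 in 2aiECKO, with 0 higher and 0 lower. Txndc5, a disulfide isomerase, had the top log2 fold, 0.26 in 2aECKO (571 in 2aECKO, 476 in 2afl/fl) and 0.09 in 2aiECKO. Fkbp2, a prolyl isomerase, was lowest in 2aECKO at -0.17, and Uggt1, which senses misfolded glycoproteins, was lowest in 2aiECKO at -0.22. Genes of ER-associated degradation and protein translocation had medians of 0.05 and 0.06 over 19 genes, with 0 past the limits. Derl1, a channel component, had 0.18 and 0.14, Edem1, which directs glycoproteins to degradation, -0.21 and -0.08, and Ubxn4 0.12 and -0.13. For 12 cytosolic aminoacyl-tRNA synthetases, many of which Atf4 raises, the medians were 0.02 and -0.02, with 0 past the limits. They ran from -0.05 for Nars to 0.13 for Yars in 2aECKO and from -0.13 for Sars to 0.08 for Lars in 2aiECKO.

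Within the 5 lists, the genes past the limits were all on that of Atf4 and Chop targets, of which 22 of 24 were measured and whose medians were 0.05 and 0.06. Of the 22, 2 were higher and 1 was lower in 2aECKO, and 2 were higher and 0 lower in 2aiECKO. The shares of all genes bright enough were 2.24% higher and 1.76% lower in 2aECKO, and 1.90% and 0.604% in 2aiECKO. Whether this list differs from all genes was not tested. Slc7a11, the cystine-glutamate exchanger, had 215 in 2aECKO and 151 in 2afl/fl, a log2 fold of 0.51, but its other probe set gave 0.03. It had 89.97 in 2aiECKO and 72.2 in 2afl/fl 4-OHT, a log2 fold of 0.32 just under the limit. Slc7a3, a cationic amino acid transporter, had 568 in 2aECKO and 435 in 2afl/fl, a log2 fold of 0.38, and 0.11 in 2aiECKO. Cth, which makes cysteine from cystathionine, was the 1 lower gene, with 101 in 2aECKO and 129 in 2afl/fl, a log2 fold of -0.35, and 0.16 in 2aiECKO.

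In 2aiECKO the higher genes were Phgdh and Sesn2. Phgdh, the first enzyme of serine synthesis, had 1428 in 2aiECKO and 1119 in 2afl/fl 4-OHT, a log2 fold of 0.35, and 0.28 in 2aECKO. Its 4 probe sets, all of a less specific design whose probes can match other transcripts, gave 0.35 to 0.42 in 2aiECKO and 0.15 to 0.28 in 2aECKO. Sesn2, a sestrin that restrains growth signalling, had 117 in 2aiECKO and 91.5 in 2afl/fl 4-OHT, a log2 fold of 0.35, with 0.28 at its other probe set, and -0.04 in 2aECKO. The amino acid gene Asns, 1 of the usual readouts of Atf4, had -0.10 in both models, and Aldh18a1 had 0.05 and -0.16. Of the 22 measured targets, 12 were above 0 in 2aECKO and 13 in 2aiECKO.

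Astrocytes express Phgdh strongly, and markers of astrocytes were above 0 alongside it. Of 8 astrocyte markers 7 were above 0 in 2aECKO, 1 of them by at least 25%, and 8 in 2aiECKO, 3 of them by that size. Their summed signal was 24243 in 2aECKO and 21237 in 2afl/fl, and 18025 in 2aiECKO and 14922 in 2afl/fl 4-OHT. The highest was Gfap, with log2 folds of 0.89 and 0.90, while Slc1a2 had 0.00 and 0.06. Of all genes, 43.9% were above 0 in 2aECKO and 44.9% in 2aiECKO. Of those bright enough, 2.24% and 1.90% were higher. Markers of meningeal fibroblasts were also above 0, 7 of 7 in 2aECKO and 6 of 7 in 2aiECKO, with medians of 0.34 and 0.18. Those of choroid plexus, a secretory epithelium, were above 0 at 7 of 7 in both, with medians of 0.20 and 0.16. Neuron markers had medians of -0.11 and -0.08, with 1 and 0 of 8 above 0. Endothelial markers had medians of 0.03 and -0.13, with 0 and 1 of 8 lower, in 2aiECKO Vwf at -0.53. Mural cell markers had medians of 0.04 and -0.12, with 0 and 2 of 6 lower, in 2aiECKO Kcnj8 at -0.35 and Abcc9 at -0.39. Of all genes bright enough, 1.76% were lower in 2aECKO and 0.604% in 2aiECKO. Oligodendrocyte lineage markers had medians of 0.00 and 0.17, with 0 and 1 of 7 higher. Kl of the choroid plexus list and Mog of the oligodendrocyte list had signals below 50 on every array. The part of these cells in the values of the stress genes was not tested.

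More lipid synthesis genes passed the limits on the same arrays. For fatty acid synthesis and desaturation 6 of 13 genes passed as higher in 2aECKO and 3 in 2aiECKO, with medians of 0.31 and 0.16 and up to 0.86 for Scd1, the stearoyl-CoA desaturase. For the cholesterol pathway 4 of 14 genes passed as higher in 2aECKO and 0 in 2aiECKO, with medians of 0.22 and 0.01. Of all genes bright enough, 2.24% were higher in 2aECKO and 1.90% in 2aiECKO. The factor Srebf1 had 591 in 2aECKO and 328 in 2afl/fl, and 461 in 2aiECKO and 303 in 2afl/fl 4-OHT. The lipid genes were known to be higher from earlier results of these arrays, and the difference between the lists was not tested. The lipid composition of the membranes was not measured on these arrays, so whether stress genes go with it can be described only through these genes.

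**Figure D4:**
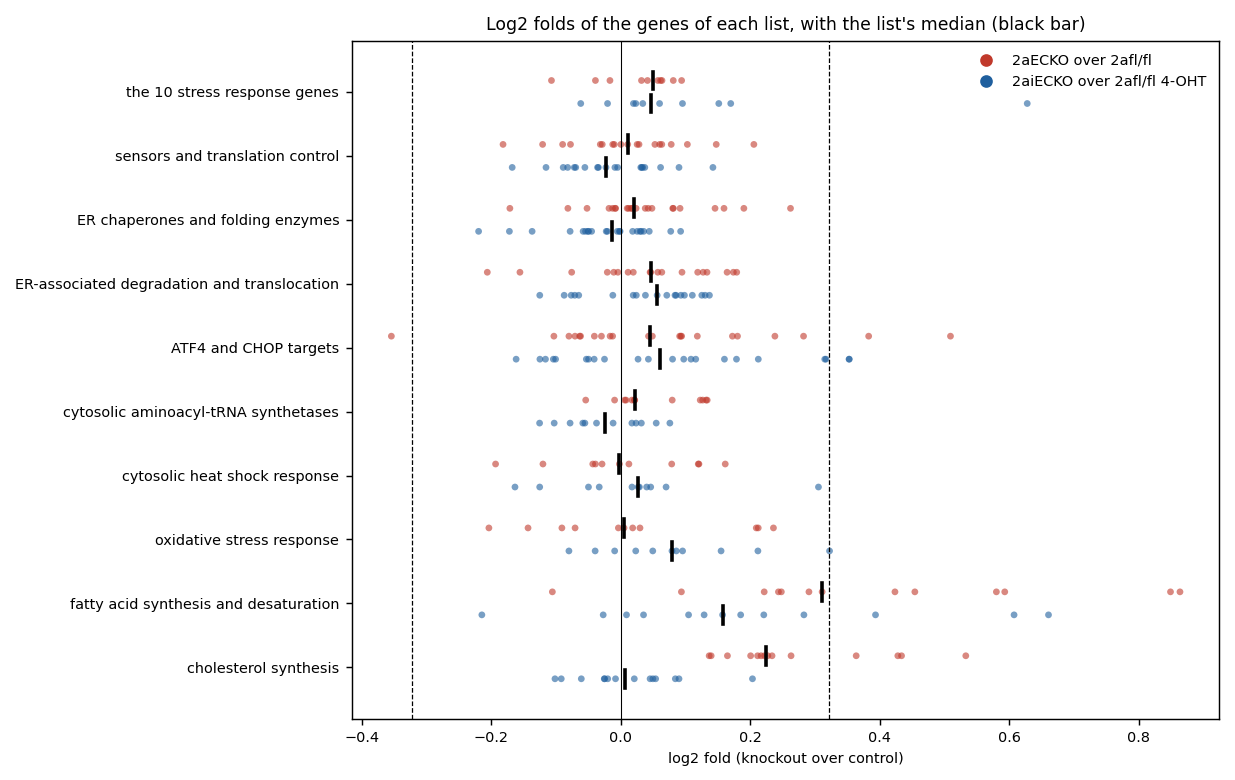
Log2 folds of the genes of each list (1 point per gene, horizontal axis), 2aECKO over 2afl/fl in red above 2aiECKO over 2afl/fl 4-OHT in blue, with the list's median as a black bar and dashed lines at 0.32 above and below 0. The medians of the stress lists lie between -0.02 and 0.08 and those of the lipid lists between 0.01 and 0.31.

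Stress responses outside the ER held 1 gene past the limits. Of 11 cytosolic heat shock genes 0 were past the limits in either model, and the medians were 0.00 and 0.03. Bag3, a co-chaperone of that response, had 0.16 in 2aECKO and 0.31 in 2aiECKO, and Hspa4l -0.19 and -0.13. Of 11 genes of the oxidative stress response 0 were past the limits in 2aECKO and 1 was higher in 2aiECKO. By the same rule 1.90% of all genes bright enough were higher in 2aiECKO. The gene was Nqo1, a quinone reductase, with 56.6 in 2aiECKO and 45.3 in 2afl/fl 4-OHT. Its log2 fold of 0.32 was just past the limit, with a control signal below 50, and it had 0.21 in 2aECKO. The medians of that list were 0.00 in 2aECKO and 0.08 in 2aiECKO.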

How the data were processed

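The authors made the deposited intensity values by robust multichip averaging (RMA) with background adjustment and quantile normalization, on a linear scale. The methods name the affy package, while the submitters' processing notes name Partek 6.6. Log2 of these values was taken. The platform annotation gives 1 symbol to 34958 probe sets and several to 932, and 9211 are unnamed here; symbols were updated through gene identifiers in the RefSeq annotation of GRCm38.p6. The brightest probe set by mean log2 over the 4 arrays stood for its gene. Knockout minus control was taken within a pair. The rule for higher genes is that of the methods, and that for lower genes is its mirror image.

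Members and lists were chosen with earlier results of these data known. Named genes were the members, the genes of each pathway list past the limits and those with its extreme folds; Snap25, Hsp90b1, Calr, Canx and Asns were named after their values were seen. With 1 array per group no test was possible, and precision is limited by the arrays being few. The calling code was tested on simulated data. Alternatives were the choice of probe sets, a loess trend (fraction 0.3), centring, a signal minimum raised to 100 or dropped, a 1.5-fold limit, quantile normalization over all 4 arrays and other controls. Python 3.11.15, numpy 2.4.6, pandas 2.3.3, statsmodels 0.14.6 and matplotlib 3.10.9 were used.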

Additional observations from a re-analysis of the deposited data

Results flagged for a closer look

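Of the 10 genes 5 had opposite signs in the 2 models, with 1 array per group, each lying above its control in 1 model and below it in the other. The log2 fold in 2aiECKO minus that in 2aECKO was 0.28 for Sdf2l1, -0.12 for Xbp1, -0.11 for Hspa5, 0.10 for Dnajb9 and 0.040 for Atf4. These differences were not tested. Of all 18194 genes, 36.1% had opposite signs in the models. The models also differ in age, cre line and 4-OHT, which cannot be told apart here. At the other probe sets of Hspa5 and Atf4 the sign was the same in both models, as it was at 2 of the 3 others of Xbp1, while the remaining one gave -0.02 in 2aiECKO and 0.02 in 2aECKO.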

How the results depend on the processing

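The counts of 0 higher and 0 lower genes stayed at 0 under all alternatives but 2. With no minimum signal 1 gene, Atf3, was higher in 2aiECKO. With the control of the other model after quantile normalization over all 4 arrays, 1 gene was higher and 2 were lower in 2aECKO. In 2aiECKO 3 were higher and 1 was lower. The medians of the 10 genes were -0.093 in 2aECKO and 0.28 in 2aiECKO, beside -0.082 and 0.076 for all genes. This setting brings the difference between the controls into each fold by construction, and the share of all genes past the limits was not counted under it. The median in 2aECKO was 0.033 over the mean of all probe sets, 0.0074 without probe sets of less specific design and -0.035 with both controls averaged, and that in 2aiECKO was 0.15 with both controls averaged. The medians of all genes with averaged controls were -0.048 in 2aECKO and 0.037 in 2aiECKO. Under the other alternatives the medians of the 10 genes kept their sign and stayed within 1.5 times. Single-gene values moved by more than the robust SD of all genes in 29 cases, 15 of them under the exchanged and 11 under the averaged controls. The others were Atf4 in 2aECKO (0.12) and Ddit3 in 2aiECKO (-0.03) over the mean of all probe sets, and Xbp1 in 2aECKO (-0.25) without probe sets of less specific design. That setting left 8 of the 10 genes, without Hspa5 and Trib3. No paired analysis was possible because each group has 1 array.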

Other observations

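The search for promoter letters gave a list of genes that does not depend on how any gene moved, although it was run after the values were seen. Exact ERSE letters were found for 20 genes on the arrays and ERSE-II for 9. Beside Hspa5 and Herpud1 they included the ER genes Calr, Canx, Hsp90b1, Pdia6, Creld2, Dnajc3, Dnajb11, Syvn1, Derl3 and Ero1b. Of these 29 genes 0 were past the limits in 2aECKO and 0 in 2aiECKO, where 2.24% and 1.76% of all genes bright enough were higher and lower in 2aECKO and 1.90% and 0.604% in 2aiECKO. With so few genes, a count of 0 is near these shares. Among genes with CARE in the promoter whose mean signal reached 50, 6 of 272 were higher and 3 lower in 2aECKO, and 3 of 248 higher and 0 lower in 2aiECKO. For CRE, 8 of 364 were higher and 3 lower in 2aECKO, and 2 of 345 higher and 0 lower in 2aiECKO. For UPRE, 2 of 115 were higher and 2 lower in 2aECKO, and 2 of 108 higher and 0 lower in 2aiECKO. ERSE and ERSE-II genes with a signal of at least 50 on both arrays ran from -0.16 to 0.20 in 2aECKO (25 genes) and from -0.17 to 0.13 in 2aiECKO (23 genes). Acacb, which encodes an acetyl-CoA carboxylase, also held the ERSE letters and had log2 folds of -0.03 and -0.08.

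Quantile normalization over all 4 arrays put the pairs on 1 scale, and Chac1, Herpud1, Hspa5, Ddit3, Dnajb9 and Trib3 then differed between the controls, and between the knockouts, by more than either of their log2 folds within a pair. The log2 difference of 2afl/fl 4-OHT minus 2afl/fl was 0.47 for Chac1, 0.46 for Herpud1, 0.31 for Hspa5, 0.28 for Ddit3, 0.22 for Trib3 and -0.39 for Dnajb9. That of 2aiECKO minus 2aECKO was 0.44 for Chac1, 0.43 for Herpud1, 0.18 for Hspa5, 0.37 for Ddit3, 0.24 for Trib3 and -0.30 for Dnajb9. For the other genes the control difference and the knockout difference were -0.21 and 0.06 for Sdf2l1, 0.09 and -0.05 for Xbp1, 0.02 and 0.06 for Atf4 and -0.10 and 0.46 for Atf3. The 2aiECKO fold of Atf3, 0.57 under this normalization, was larger than its difference between the pairs. None of the 10 genes lay outside the central 90% of genes whose mean signal reached 50, which ran from -0.40 to 0.47 between the controls. Age, 4-OHT and the separate processing of the pairs cannot be told apart.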
